A study of Mus musculus with 15 samples.

Results

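The genes of the proteasome were followed through sorted mouse microglia. Members were all lines of the expression table whose symbol begins with Psma, Psmb, Psmc, Psmd, Psme, Psmf or Psmg and then a digit, which gave 49 of 13834 genes. By role these were 8 genes of the alpha ring, 7 of the constitutive beta ring, 3 inducible or thymic beta subunits, 6 ATPases of the cap's base, 11 non-ATPase cap subunits, 3 chaperones of base assembly, 5 activators and inhibitors and 4 chaperones of core assembly. The remaining 2, Psme2b and Psmc3ip, were kept apart from these roles. Psmc3ip encodes a partner of a base ATPase that acts in meiotic recombination and is no subunit, and Psme2b is a near-identical copy of the activator gene Psme2. Psmb8, the inducible counterpart of Psmb5, was not analysed here.

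The proteasome is a barrel of stacked rings that degrades proteins marked with ubiquitin. The outer alpha rings gate the entrance and the inner beta rings carry the cutting sites, supplied by Psmb6, Psmb7 and Psmb5. A cap of ATPases and non-ATPase subunits binds, unfolds and feeds in the substrate. Under interferon the sites can be replaced by inducible subunits, among them Psmb9 and Psmb10, giving the immunoproteasome, which is known for making peptides for MHC class I. Microglia, the resident macrophages of the brain, are a cell type in which the immunoproteasome is known to be inducible.

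RNA was sequenced from 15 libraries of microglia sorted by flow cytometry from mouse brain. The PLX5622 group (n = 4) came from 18-month-old mice that received PLX5622, a CSF1 receptor inhibitor in common use for depleting microglia. The AF-high (n = 5) and AF-low (n = 3) groups were sorted for high and low autofluorescence from untreated mice of 18 months, and the young group (n = 3) came from untreated mice of 3 months. Strain, sex, sort markers, the autofluorescence gate of the PLX5622 and young cells, the dose and schedule of the compound, and whether a library pools animals were not given in the sources used here. Titles call the libraries biological replicates; p-values here reflect only how far these libraries scatter, which may in part be technical. Values are TPM, transcript abundance per length scaled to a like total, so levels of different genes can be set side by side. Changes are differences of log2(TPM + 1), a scale that understates changes of low genes, ± SE from limma over 13175 genes, with p-values adjusted by the Benjamini-Hochberg method over all of them.

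Library totals ran from 956489 to 963145 TPM, and the depth in reads is unknown. All 13 microglial markers were in the table, with a summed level of 10246 ± 330.3 TPM in PLX5622, 11895 ± 1591 in AF-high, 9356 ± 1558 in AF-low and 12189 ± 882.3 in young libraries. Markers of choroid plexus (4 of 7 in the table) summed to 8745, 5764 and 209.5 TPM in young 1, 2 and 3 and to between 31.6 and 368.2 TPM in the 12 libraries from old mice. Oligodendrocyte markers (7 of 9) ran from 98.9 to 978.1 TPM in young libraries and from 57.3 to 124.3 TPM in the old ones. Astrocyte markers (6 of 10) ran from 98.0 to 265.1 TPM in young libraries and from 77.2 to 142.0 TPM in the old ones. Enpp2 is in both the choroid plexus and the oligodendrocyte list. Endothelial markers (3 of 7) summed to 132.9 TPM in AF-low 1 and to between 29.1 and 69.1 TPM in the other 14 libraries. Markers of border-associated macrophages (7 of 7) summed to 40.0 ± 13.3 TPM in PLX5622, 94.3 ± 22.4 in AF-high, 148.9 ± 19.7 in AF-low and 62.3 ± 9.60 in young libraries. Mitochondrially encoded transcripts took 5.38% and 7.66% of TPM in AF-high 2 and AF-high 3, and between 1.57% and 2.70% in the other 13 libraries. The part of these differences in the results for the proteasome was not tested beyond leaving out the libraries concerned. In these bulk samples, fewer cells of a type and less RNA per cell cannot be told apart.

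All 49 genes passed the filter on low values. Together they took 0.308% ± 0.0156 of TPM in PLX5622 libraries, 0.331% ± 0.0425 in AF-high, 0.341% ± 0.0231 in AF-low and 0.347% ± 0.0118 in young libraries (SD; n = 4, 5, 3 and 3). The means of the 4 groups lay within the range of the AF-high libraries alone, 0.283% to 0.374%. Transcripts of the core particle (alpha and constitutive beta rings) exceeded those of the cap (ATPases and non-ATPase subunits) by like ratios in every group. That ratio was 1.32 ± 0.0312 in PLX5622, 1.26 ± 0.109 in AF-high, 1.29 ± 0.107 in AF-low and 1.32 ± 0.0156 in young libraries.

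Levels spanned a wide range within most roles. Among genes of the alpha ring, the mean over all 15 libraries ran from 3.54 TPM for Psma8, known as a testis-specific alpha subunit, to 137.2 TPM for Psma3. In the constitutive beta ring it ran from 27.8 TPM for Psmb1 to 263 TPM for Psmb4, which was the highest of the 49 genes. Base ATPases ran from 39.3 TPM for Psmc4 to 116.9 TPM for Psmc6, and non-ATPase cap subunits from 11.3 TPM for Psmd13 to 122.9 TPM for Psmd8. Assembly chaperones stood lower: Psmd9, Psmd5 and Psmd10, which help to assemble the base, lay between 13.1 and 17.8 TPM, and Psmg1 to Psmg4, which assemble the core, between 7.08 and 17.3 TPM. Among activators and inhibitors, Psmf1, an inhibitor of the core particle, had the lowest level at 14.9 TPM and Psme1, a subunit of the interferon-inducible activator ring, the highest at 186.8 TPM.

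No member was called (limma, adjusted p under 0.05) in any of the 6 comparisons between groups. Between AF-high and AF-low libraries 0 of 49 members were called, against 0% of all genes tested. The count was likewise 0 for AF-high against young (0% of all genes), AF-low against young (0.0455%), PLX5622 against AF-high (0.63%), PLX5622 against AF-low (0.144%) and PLX5622 against young (0.0911%, with 0.0607% higher and 0.0304% lower). With so few genes called anywhere, 0 of 49 is near the background. At an unadjusted p under 0.05, 4 members (8.16%) passed between AF-high and AF-low libraries, against 8.21% of all genes. The corresponding counts were 6 (12.2%, against 11% of all genes) for AF-high against young, 2 (4.08%, against 11.8%) for AF-low against young and 4 (8.16%, against 15.3%) for PLX5622 against AF-high. For PLX5622 against AF-low it was 1 (2.04%, against 14.3%), and for PLX5622 against young 0 (0%, against 5.23%). These tests share 1 estimate of each gene's spread over all 15 libraries. Members scattered unequally, with a median SD of 0.472 in AF-high, 0.36 in AF-low, 0.173 in PLX5622 and 0.122 in young libraries. With both groups fitted alone the counts were 1, 5, 3, 2, 5 and 13 in the same order. The share of all genes was not taken in those fits. The comparisons share groups and are not independent of each other.

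How large a change these data leave room for was read from the 95% intervals. The interval lay wholly between log2 changes of -1 and 1 for 39 of 49 members between AF-high and AF-low libraries, against 72.4% of all genes. It did so for 39 members in AF-high against young (71.1% of all genes), 38 in AF-low against young (62.3%), 43 in PLX5622 against AF-high (74.9%), 42 in PLX5622 against AF-low (65.5%) and 40 in PLX5622 against young (74%). For these members a doubling or halving on this scale lay outside the interval. A missed threshold does not show that the groups had equal levels.

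**Figure D1:**
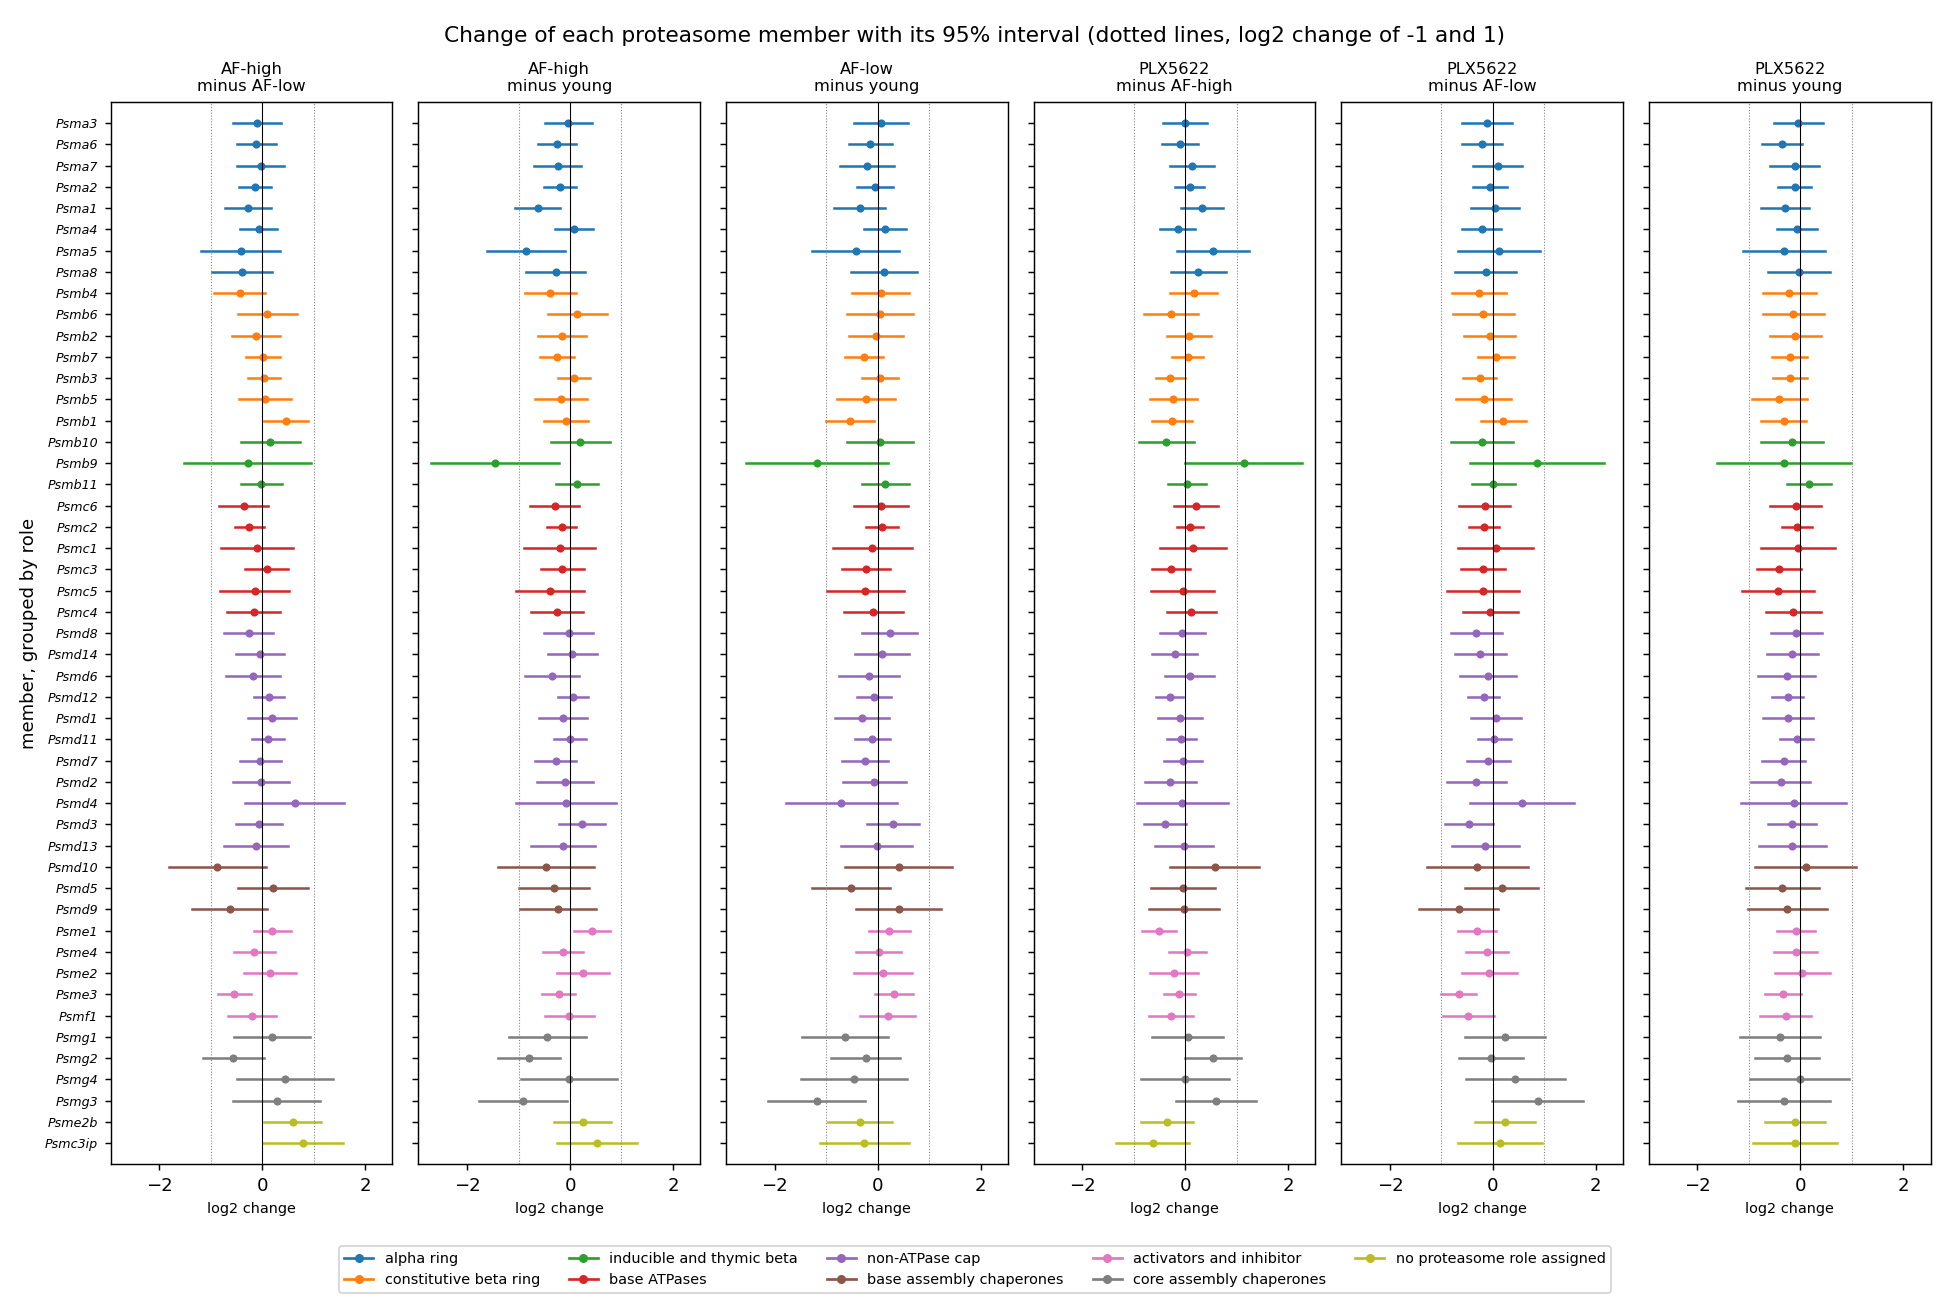
Log2 change (x axis, first-named group minus second) of each of the 49 genes (y axis, grouped and coloured by role) in the 6 comparisons. Points are limma estimates, bars are 95% intervals and dotted lines mark log2 changes of -1 and 1. Psmb9 has the widest intervals, and in PLX5622 minus young 46 of 49 points lie below 0.

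The direction of small changes was set beside that of the whole table. The median change of the members was -0.07 for AF-high against AF-low, where that of all genes was -0.04, and 30 of 49 members lay below 0 (61.2%, against 56.1% of all genes); under quantile normalization it was -0.02, with 26 below 0. For AF-high against young it was -0.16 (all genes -0.08; 36 members below 0, against 61% of all genes), and for AF-low against young -0.07 (all genes -0.04; 29 below 0, against 54.3%). Under quantile normalization, where the medians of all genes were -0.01 and -0.004, those of the members were -0.17 for AF-high against young (34 below 0, against 50.8% of all genes) and -0.13 for AF-low against young (36 below 0, against 50.5%). On the values as deposited, the members' median for PLX5622 against AF-high was -0.04 (all genes -0.02; 28 below 0, against 52.5%) and for PLX5622 against AF-low -0.11 (all genes -0.05; 32 below 0, against 55.6%), and quantile normalization turned both medians round, to 0.04 and 0.05. For PLX5622 against young it was -0.16, 46 of 49 members lay below 0, and so did 69.3% of all genes, whose median was -0.11. Quantile normalization shifted that all-gene median by 0.11, to -0.01, and left 37 members below 0 with a median of -0.06. Measured from the all-gene median, 30 of 49 members lay below it in PLX5622 against young.

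Among the cutting subunits, Psmb9 varied most. Psmb9, the inducible counterpart of Psmb6, had 20.2, 43.7, 29.8 and 31.1 TPM in PLX5622 libraries, 35.5, 2.48, 17.4, 17.4 and 12 TPM in AF-high, 9.68, 32.8 and 13.04 TPM in AF-low, and 63.1, 32.9 and 25.9 TPM in young libraries. AF-high 2 had the lowest value and young 1 the highest, and every pair of groups overlapped. Its level averaged 17.0 ± 12.02 TPM in AF-high and 40.6 ± 19.8 TPM in young libraries, a log2 change of -1.46 ± 0.58 (95% interval -2.70 to -0.22; limma, adjusted p = 0.365). In AF-low it averaged 18.5 ± 12.5 TPM, a log2 change of -1.18 ± 0.65 from young libraries (adjusted p = 0.497). PLX5622 libraries averaged 31.2 ± 9.63 TPM, a log2 change of 1.14 ± 0.53 from AF-high (adjusted p = 0.323) and of -0.32 ± 0.61 from young libraries (adjusted p = 0.98). The difference from AF-high was 0.64 without AF-high 2 and 1.48 without AF-high 1, and that of AF-high from young libraries -0.96 and -1.80. Without AF-low 1 the difference of AF-low from young libraries was -0.83, and without AF-low 2 it was -1.66. The difference of PLX5622 from young libraries was 0.04 without young 1. Its spread within groups was the widest of the 49 genes, with a residual SD of 0.91 on the log2 scale.

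Psmb9 and Tap1, which encodes a subunit of the peptide transporter for MHC class I, lie head to head on chromosome 17. The stretch between their RefSeq starts (GRCm38.p6, plus strand, chr17:34187331-34187555, 225 bases) is shown because the partners can be compared over 1 shared stretch of DNA; capitals mark the single CCAAT match, searched on both strands.
Psmb9-Tap1: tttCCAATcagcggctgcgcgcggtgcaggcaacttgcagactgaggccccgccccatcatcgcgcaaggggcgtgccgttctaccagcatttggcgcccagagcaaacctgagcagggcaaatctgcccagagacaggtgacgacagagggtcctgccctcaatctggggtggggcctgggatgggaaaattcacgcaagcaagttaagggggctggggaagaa
Psmb9 starts at position 34187330 on the minus strand and Tap1 at 34187556 on the plus strand. Tap1 had 18.5, 18.8, 22.0 and 24.3 TPM in PLX5622 libraries, 20.2, 30.1, 23.4, 23.6 and 20.01 TPM in AF-high, 18.1, 29.3 and 23.3 TPM in AF-low, and 21.6, 16.6 and 21.3 TPM in young libraries. AF-high 2, lowest for Psmb9, was highest for Tap1. In the GENCODE M21 annotation the transcripts of both genes overlap on opposite strands, and 10.8% of the 31-base words of Psmb9 transcripts also occur in Tap1, so reads there may be hard to assign unless strand was used, which no source used here states.

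Psmb10, the inducible counterpart of Psmb7, ran higher on average and steadier. It had 42.2, 53.2, 50.8 and 48.6 TPM in PLX5622 libraries, 36.8, 108.5, 69.5, 67.2 and 51.9 TPM in AF-high, 40.2, 75.9 and 58.6 TPM in AF-low, and 57.8, 47.6 and 59.1 TPM in young libraries. AF-high 2 stood highest, in contrast to its Psmb9 value. No comparison gave an adjusted p under 0.515. The change of largest size was -0.36 ± 0.25 (PLX5622 against AF-high), and the sign for AF-high against AF-low, 0.15 ± 0.27, turned round without AF-high 2 or without AF-low 1. Psmb11, the subunit known from the thymic cortex, was listed at between 8.45 and 12.9 TPM in every library.

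The constitutive cutting subunits overlapped between all groups. Psmb6 had 138.8, 123.9, 110.2 and 149.5 TPM in PLX5622 libraries, 214.6, 90.9, 125.7, 258.2 and 152.7 TPM in AF-high, 111.0, 183.7 and 157.7 TPM in AF-low, and 139.3, 152.6 and 137.2 TPM in young libraries. Psmb7 had 69.2, 80.1, 71.9 and 83.8 TPM in PLX5622 libraries, 85.9, 73.2, 53.0, 81.2 and 78.7 TPM in AF-high, 68.8, 84.1 and 67.5 TPM in AF-low, and 81.7, 97.1 and 86.4 TPM in young libraries. AF-high libraries covered the widest range for Psmb6 and Psmb7. Psmb5 had 36.0, 42.0, 38.7 and 49.3 TPM in PLX5622 libraries, 66.0, 37.8, 30.5, 58.1 and 59.9 TPM in AF-high, 37.5, 44.1 and 61.9 TPM in AF-low, and 59.0, 58.1 and 48.6 TPM in young libraries. The adjusted p was 0.564 or higher for each of the 3 genes in each comparison. Of the 31-base words of Psmb5 transcripts 71.7% occur in other genes, and of those of Psmb7 33.5%, so these levels are uncertain.

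**Figure D2:**
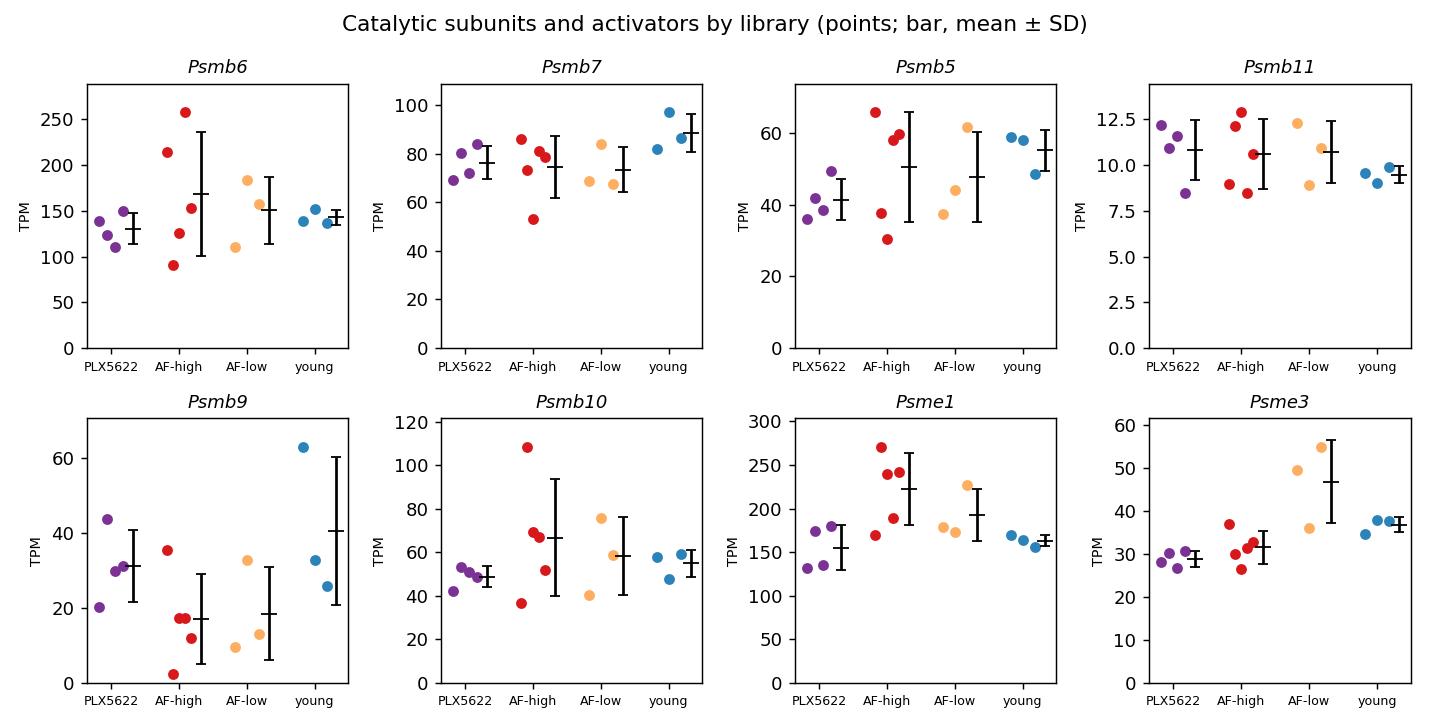
TPM (y axis, from 0) of 6 cutting subunits and 2 activator genes in each library (points) by group (x axis), with bars for mean ± SD. Psmb9 spreads from 2.48 TPM in AF-high 2 to 63.1 TPM in young 1, whereas Psmb11 stays between 8.45 and 12.9 TPM; for Psme3 the PLX5622 points lie below all AF-low points.

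The share of inducible subunits was taken as Psmb9 plus Psmb10 over these and their counterparts Psmb6 and Psmb7. It was 23.1%, 32.2%, 30.7% and 25.5% in PLX5622 libraries, 19.4%, 40.3%, 32.7%, 19.9% and 21.6% in AF-high, 21.7%, 28.9% and 24.1% in AF-low, and 35.4%, 24.4% and 27.5% in young libraries. The groups averaged 27.9% ± 4.30, 26.8% ± 9.31, 24.9% ± 3.65 and 29.1% ± 5.65 in that order and overlapped. The pairs behaved differently within that share. Psmb9 made up 19.3% ± 5.70 of Psmb9 plus Psmb6 in PLX5622, 8.52% ± 4.65 in AF-high, 10.3% ± 4.24 in AF-low and 21.6% ± 8.35 in young libraries. All 5 AF-high values (2.65% to 14.2%) lay below all young values (15.9% to 31.2%), as did all 3 AF-low values (7.64% to 15.2%). How often shares of other gene pairs separate these groups was not taken. Of single genes, 5.15% lay wholly below young in AF-high and 11.1% in AF-low, and the level of Psmb9 itself overlapped in both. Psmb10 made up 39.0% ± 2.10 of Psmb10 plus Psmb7 in PLX5622, 46.3% ± 12.2 in AF-high, 43.6% ± 5.85 in AF-low and 38.3% ± 4.71 in young libraries. These shares are descriptions, and no test was made on them.

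Of the activators, Psme3 had the smallest residual SD, 0.18 on the log2 scale, but was not the steadiest in every group. In AF-low its SD was 0.309, above Psme1 (0.214) and Psme4 (0.137). In young libraries it was 0.069, above Psme1 (0.059) and Psme2 (0.016). Psme3 encodes a nuclear activator that opens the core without ubiquitin. It had 28.0, 30.2, 26.7 and 30.6 TPM in PLX5622 libraries, 36.9, 29.9, 26.5, 31.4 and 32.8 TPM in AF-high, 49.5, 36.1 and 55.0 TPM in AF-low, and 34.8, 38.0 and 37.6 TPM in young libraries. All 4 PLX5622 values lay below all AF-low and all young values, and AF-high overlapped AF-low only through AF-low 2. PLX5622 libraries averaged 28.9 ± 1.83 TPM and AF-low 46.8 ± 9.71 TPM, a log2 change of -0.66 ± 0.16 (95% interval -0.999 to -0.318; limma, adjusted p = 0.11). Without AF-low 2 it was called (log2 change -0.83, adjusted p = 0.0237). With other libraries left out in turn it was not called, with changes down to -0.54 in size and limma adjusted p-values up to 0.331. AF-high averaged 31.5 ± 3.82 TPM, a log2 change of -0.54 ± 0.15 from AF-low (adjusted p = 0.471). The border-associated macrophage markers given above were likewise lowest in PLX5622 and highest in AF-low libraries. The other groups did not keep that order. The markers were higher in AF-high (94.3 TPM) than in young libraries (62.3 TPM), and Psme3 was lower (31.5 and 36.8 TPM). AF-low 2 had the highest marker sum of the 15 libraries, 161.3 TPM, and the lowest Psme3 of the AF-low group. The part of these markers in the Psme3 values was not tested.

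Psme1 was on average highest in AF-high libraries and, like Psme3, lowest in PLX5622 libraries. It had 131.6, 174.1, 135.5 and 180.2 TPM in PLX5622 libraries, 169.6, 271, 239.2, 189.7 and 241.9 TPM in AF-high, 179.1, 172.7 and 227.2 TPM in AF-low, and 169.5, 163.9 and 156.2 TPM in young libraries. AF-high values all lay above the young values, by a margin of under 1 TPM at the nearest pair, and AF-high and PLX5622 overlapped. AF-high averaged 222.3 ± 41.5 TPM and young libraries 163.2 ± 6.67 TPM, a log2 change of 0.42 ± 0.17 (adjusted p = 0.362). PLX5622 averaged 155.3 ± 25.4 TPM, a log2 change of -0.51 ± 0.15 from AF-high (95% interval -0.83 to -0.18; adjusted p = 0.124). AF-high 2 and AF-high 3, which carry the high mitochondrial share, were among the 3 highest for Psme1. Of the 31-base words of Psme1 transcripts 18.5% occur in other genes.

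The letters of an interferon-stimulated response element (GAAA, any 2 bases, then GAAA, on either strand) occur in the first bases of Psme1, and the 30 bases around the match (GRCm38.p6, plus strand, chr14:55578493-55578522) are shown because this is the activator subunit with the smallest p in PLX5622 against AF-high; capitals mark the match, read on the opposite strand.
Psme1: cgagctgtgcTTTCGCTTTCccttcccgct
The element occurred in the 300-base windows around the RefSeq starts of 5 of 41 matched members (12.2%: Psmb3, Psmd4, Psmd9, Psme1 and Psmg4), against 3.99% of 27025 genes. The core of the antioxidant response element (TGACNNNGC) occurred in 6 (14.6%, against 14%), the CCAAT box in 15 (36.6%, against 41.1%) and the gamma-activated site (TTCNNNGAA) in 2 (4.88%, against 9.55%). The 4 motifs were searched on both strands, overlaps were not merged, and a match in these letters is a description, not a binding site.

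Psme2, the partner of Psme1 in the activator ring, lies on chr14:55587441-55591113 (GENCODE M21, GRCm38, minus strand), and its copy Psme2b on chr11:48945354-48946190 (minus strand). Both have 717 coding bases, of which 712 (99.3%) are identical. The 5 substitutions, with the base of Psme2 first and positions from 1 at the coding start, are C312T, A369G, C489T, C519T and C543T. Coding bases 454 to 543 are shown because the values of the pair rest on such few differences; the 3 that fall in it are in capitals.
Psme2: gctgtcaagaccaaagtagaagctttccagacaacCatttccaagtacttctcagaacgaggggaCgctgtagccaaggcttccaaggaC
Psme2b: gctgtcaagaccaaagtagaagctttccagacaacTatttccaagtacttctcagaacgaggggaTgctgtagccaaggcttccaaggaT
Of the 31-base words of Psme2 transcripts 62.6% also occur in other genes, and of those of Psme2b 78.4%, so how reads were split between the pair is uncertain.

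The pair's split moved from library to library in the AF-high group. Psme2 had 68.7, 85.7, 78.0 and 94.1 TPM in PLX5622 libraries, 142.6, 101.1, 63.6, 77.4 and 106.5 TPM in AF-high, 60.5, 84.3 and 119.8 TPM in AF-low, and 78.4, 78.6 and 80.0 TPM in young libraries. Psme2b had 79.9, 72.2, 93.6 and 89.999 TPM in PLX5622 libraries, 63.8, 176.8, 133.2, 90.6 and 103.3 TPM in AF-high, 50.1, 82.3 and 87.0 TPM in AF-low, and 84.1, 88.8 and 98.8 TPM in young libraries. AF-high 2 and AF-high 3 were the highest for Psme2b, and AF-high 1 for Psme2. Psme2b averaged 113.5 ± 43.3 TPM in AF-high and 73.1 ± 20.1 TPM in AF-low libraries, a log2 change of 0.58 ± 0.26 (adjusted p = 0.578), which turned to -0.01 in a fit lacking AF-low 1, AF-high 2 and AF-high 3. Its share of the pair was 50.7% ± 4.18 in PLX5622, 53.1% ± 14.4 in AF-high (lowest 30.9%, highest 67.7%), 45.6% ± 3.68 in AF-low and 53.4% ± 1.76 in young libraries. Summed, the pair had 165.6 ± 15.5 TPM in PLX5622, 211.8 ± 40.5 in AF-high, 161.3 ± 48.4 in AF-low and 169.6 ± 8.41 in young libraries. The log2 change of the sum was 0.42 ± 0.18 for AF-high against AF-low (adjusted p = 0.578) and -0.34 ± 0.17 for PLX5622 against AF-high (adjusted p = 0.354).

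**Figure D3:**
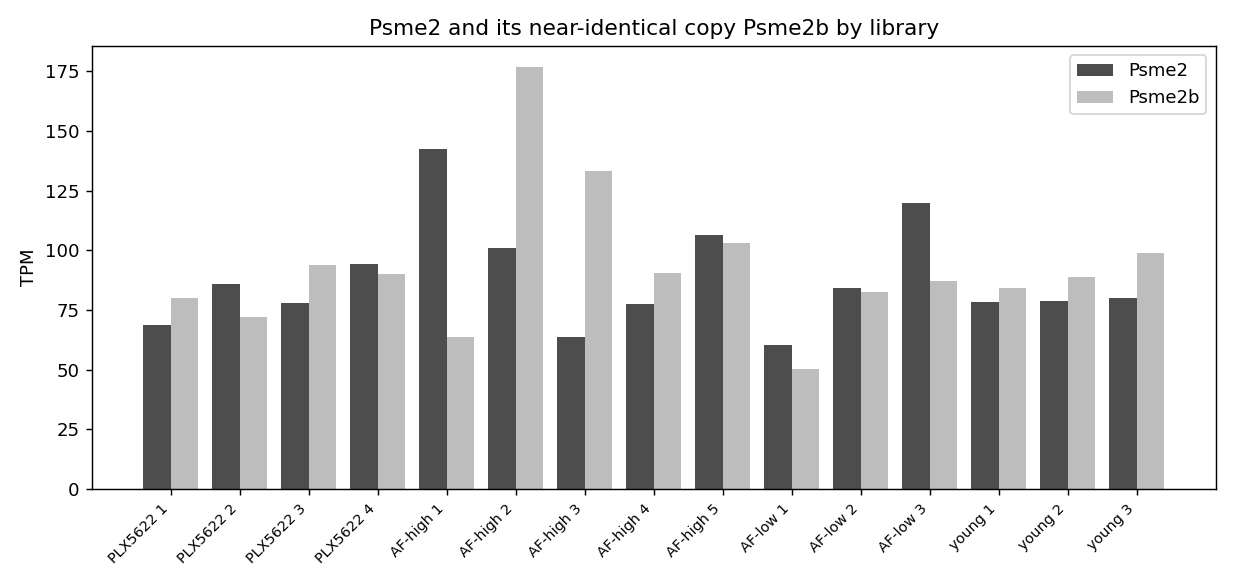
TPM (y axis, from 0) of Psme2 (dark bars) and its copy Psme2b (light bars) in each of the 15 libraries (x axis). The bars are of like height in the young and PLX5622 libraries, whereas Psme2b stands at 176.8 and 133.2 TPM in AF-high 2 and AF-high 3, above Psme2.

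The remaining activator and the inhibitor showed small differences. Psme4, a single-chain activator known from histone degradation, had 147.8, 161.8, 153.5 and 171.4 TPM in PLX5622 libraries, 147.2, 104.9, 217.8, 138.3 and 183.6 TPM in AF-high, 170.5, 156.1 and 188.9 TPM in AF-low, and 166.4, 190.2 and 152.2 TPM in young libraries. AF-high held both the lowest and the highest value. Psmf1 had 12.6, 12.5, 10.4 and 13.2 TPM in PLX5622 libraries, 15.2, 19.3, 9.90, 12.8 and 19.3 TPM in AF-high, 22.9, 14.4 and 15.6 TPM in AF-low, and 16.4, 13.4 and 15.2 TPM in young libraries. Its PLX5622 values lay below all AF-low and all young values, with a log2 change of -0.48 ± 0.23 from AF-low (adjusted p = 0.364) and -0.28 ± 0.23 from young libraries (adjusted p = 0.979).

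Groups that did not overlap were counted for every member. In AF-high against young, Psme1 was the only member with all AF-high values above all young ones (2.63% of all genes), and Psma1, Psmd7 and Psmg3 lay wholly below (5.15% of all genes). In AF-low against young, Psma4, Psmd10 and Psme1 lay wholly above (8.25% of all genes) and Psmb1 and Psmg1 wholly below (11.1%). No member separated AF-high from AF-low (1.05% of all genes above, 1.71% below) or PLX5622 from AF-high (2.37% above, 4.18% below). For PLX5622 against AF-low 7 members lay wholly below, 14.3% against 10.9% of all genes, namely Psma4, Psmb4, Psmd8, Psmd10, Psmd13, Psme3 and Psmf1, and 0 wholly above (5.31% of all genes). In PLX5622 against young 12 members lay wholly below, 24.5% against 12.7% of all genes, and 0 wholly above (3.28%). These were Psma1, Psma6, Psmb1, Psmc3, Psmc5, Psmd2, Psmd6, Psmd7, Psmd12, Psme3, Psmf1 and Psmg1, spread over rings, cap, activators and chaperones, and none passed the test.

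In the alpha ring no member passed the test. Psma1, an alpha-ring subunit, had 72.7, 43.9, 52.6, 62.1 and 71.3 TPM in AF-high libraries and 88.0, 93.3 and 96.8 TPM in young libraries. The groups were apart, with a log2 change of -0.63 ± 0.21 (adjusted p = 0.289). Psma5, of the same ring, averaged 39.5 ± 20.4 TPM in AF-high and 63.5 ± 5.78 TPM in young libraries, a log2 change of -0.85 ± 0.36 (adjusted p = 0.397). AF-high 2 and AF-high 3 were lowest for Psma5, at 18.7 and 16.7 TPM, and 66.5% of its 31-base words occur in other genes.

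No core chaperone passed the test, but all 4 had log2 changes below 0 in AF-high against young (median -0.62; 61% of all genes below 0), in AF-low against young (median -0.54; 54.3%) and in PLX5622 against young (median -0.29; 69.3%). These comparisons share the 3 young libraries. In AF-high against young all 6 base ATPases and all 3 base chaperones likewise lay below 0, and Psmg4 was at only -0.02. In PLX5622 against young so did all 8 alpha-ring genes, 7 of the constitutive beta ring, 6 base ATPases and 11 non-ATPase cap subunits. Psmg3, which pairs with Psmg4, had 3.81, 2.25, 6.32, 8.08 and 6.76 TPM in AF-high libraries, 1.73, 3.09 and 10.1 TPM in AF-low, and 11.5, 9.81 and 9.80 TPM in young libraries. AF-high values were all below young ones, and AF-low 3 fell within the young range. The log2 change was -0.91 ± 0.40 for AF-high against young (adjusted p = 0.424) and -1.19 ± 0.45 for AF-low against young (adjusted p = 0.305), and 0.87 ± 0.42 for PLX5622 against AF-low (adjusted p = 0.358). Psmg2, which pairs with Psmg1, averaged 9.64 ± 3.49 TPM in AF-high and 16.9 ± 2.31 TPM in young libraries, a log2 change of -0.80 ± 0.28 (adjusted p = 0.304). PLX5622 libraries averaged 14.04 ± 3.35 TPM of Psmg2, a log2 change of 0.54 ± 0.26 from AF-high (adjusted p = 0.334). At a few TPM, single libraries weigh heavily in these values. Of the 31-base words of Psmg3 transcripts 23.6% occur in Gm26938, which overlaps it on the same strand, so its level is uncertain.

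No member of the beta ring or the cap passed the test either. Psmb1, a non-cutting beta subunit, averaged 30.8 ± 6.58 TPM in AF-high and 22.1 ± 5.26 TPM in AF-low libraries, a log2 change of 0.46 ± 0.20 (adjusted p = 0.571), and AF-low differed from young libraries (31.99 ± 2.84 TPM) by -0.53 ± 0.22 (adjusted p = 0.35). Psmd12, a scaffold subunit of the cap's lid, averaged 67.3 ± 3.95 TPM in PLX5622 and 83.7 ± 10.7 TPM in AF-high libraries, a log2 change of -0.30 ± 0.12 (adjusted p = 0.261). Psmd4, a ubiquitin receptor of the cap, had log2 changes of larger size and wide error, 0.63 ± 0.45 for AF-high against AF-low (adjusted p = 0.735), -0.70 ± 0.51 for AF-low against young (adjusted p = 0.611) and 0.57 ± 0.48 for PLX5622 against AF-low (adjusted p = 0.612). Each of these involves AF-low, where Psmd4 had 5.52 TPM in AF-low 1 against 29.8 and 28.5 TPM in AF-low 2 and AF-low 3. Young libraries averaged 28.5 TPM. Psmd3, of the lid, had a log2 change of -0.46 ± 0.22 for PLX5622 against AF-low (adjusted p = 0.358) and of 0.30 ± 0.24 for AF-low against young (adjusted p = 0.645). Without AF-low 1 these were -0.23 and 0.07, and without AF-low 2 they were -0.70 and 0.54. Psmc3, a base ATPase, averaged 51.4 ± 4.29 TPM in PLX5622 and 69.2 ± 8.79 TPM in young libraries, a log2 change of -0.42 ± 0.20 (adjusted p = 0.955). Psmc3ip, apart from the complex, averaged 4.16 ± 2.69 TPM in AF-high and 1.77 ± 0.818 TPM in AF-low libraries, a log2 change of 0.78 ± 0.37 (adjusted p = 0.606).

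Members scattered more within the gated old groups than within the others. The median SD of a member on the log2 scale was 0.173 in PLX5622 (all genes 0.201), 0.472 in AF-high (all genes 0.391), 0.36 in AF-low (all genes 0.337) and 0.122 in young libraries (all genes 0.175). Members thus scattered less than the typical gene in PLX5622 and young libraries, and more than it in AF-high. Psmc2, Psmd12, Psmd11 and Psme3 were the steadiest, with residual SDs of 0.15 to 0.18, and after Psmb9 the most variable were Psmd4 (0.71), Psmd10 (0.68) and Psmg4 (0.66). Psmd10 was at 2.77 TPM in AF-high 2 and Psmd4 at 5.52 TPM in AF-low 1.

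AF-high 2 and AF-high 3 sat lowest of the 15 libraries. Relative to each gene's mean over 15 libraries, the members' median was -0.31 in AF-high 2 and -0.33 in AF-high 3, where that of all genes was -0.02 and -0.05, and 32 and 37 of 49 members lay below their own mean. Such counts were not particular to these libraries: PLX5622 1 and PLX5622 3 had 32 and 35, with members' medians of -0.08 and -0.09 (all genes 0.01 and -0.10). In AF-high 1, 4 and 5 the members' median was 0.16, 0.09 and 0.13. The root mean square distance of the members from the AF-high means was 0.458, 0.71, 0.473, 0.393 and 0.298 in AF-high 1 to 5. A fit lacking AF-low 1, AF-high 2 and AF-high 3, which carry the endothelial markers and the mitochondrial shares given above, was chosen because these libraries stood apart in earlier results of these data. In it the median change of the members was 0.05 for AF-high against AF-low (all genes -0.02), where 23 of 49 lay below 0, against 52.3% of all genes. It was -0.01 for AF-high against young (all genes -0.07) and -0.21 for PLX5622 against AF-high (all genes -0.04). In the last, 38 members lay below 0, against 54.1% of all genes, and 12 passed an unadjusted p under 0.05. The share of all genes at that unadjusted threshold was not taken in this fit, so the 12 have no background beside them. In that fit 1 member was called in PLX5622 against AF-high, Psmd4 (log2 change -0.58, adjusted p = 0.0451), among 295 genes called (83 with all libraries). With all libraries its change was -0.06 ± 0.42, and 0.04 under quantile normalization.

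**Figure D4:**
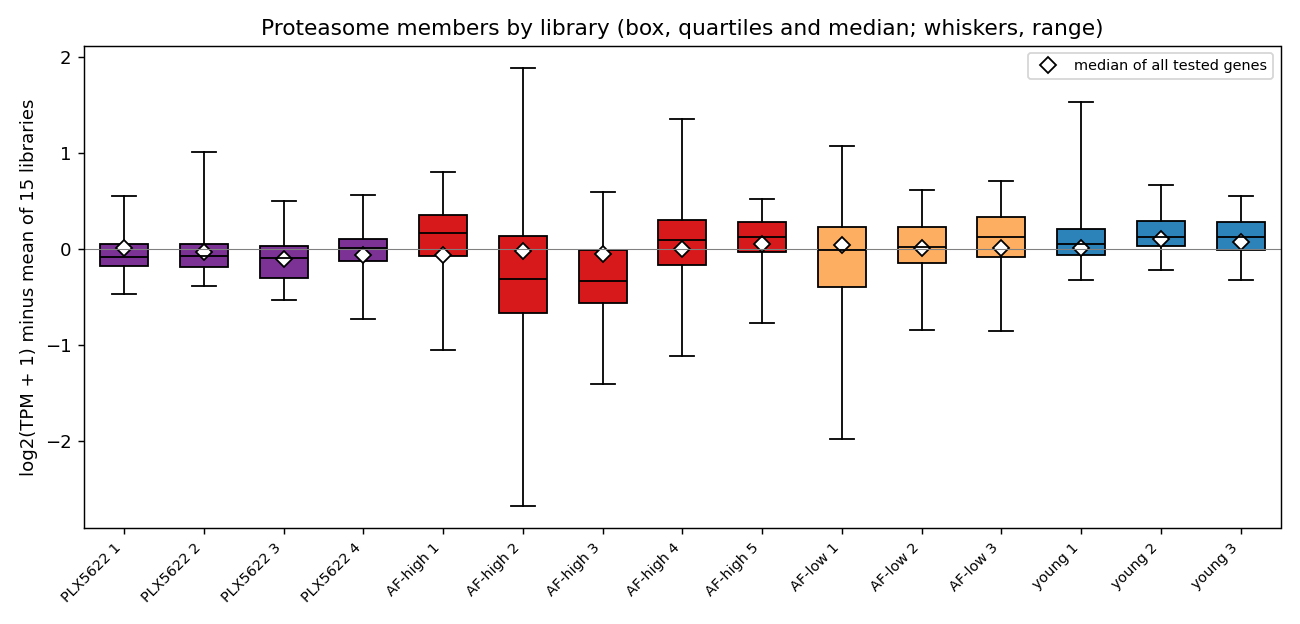
Deviation of the 49 genes from their own means over 15 libraries (y axis, log2 scale) in each library (x axis); boxes give quartiles and median, whiskers the range, and diamonds the median of all genes tested. The boxes of AF-high 2 and AF-high 3 sit lowest, with medians of -0.31 and -0.33, while their diamonds lie near 0.

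Genes around the proteasome were counted from 3 lists. Of 22 regulators outside the naming rule (receptors, assembly factors, deubiquitinases and transcription factors of proteasome genes), 20 were tested and 0 were called in either direction in any comparison; at an unadjusted p under 0.05 the count ran from 1 (PLX5622 against young; 5.23% of all genes) to 7 (PLX5622 against AF-low; 14.3% of all genes). Their median change lay between -0.22 (PLX5622 against AF-low; all genes -0.05) and 0.05 (AF-low against young; all genes -0.04). Nfe2l2, a transcription factor of the oxidative stress response that can raise proteasome genes, averaged 382.0 ± 73.3 TPM in AF-high and 270.9 ± 27.9 TPM in young libraries, a log2 change of 0.48 ± 0.15 (adjusted p = 0.264). PLX5622 libraries averaged 274.5 ± 17.7 TPM of Nfe2l2, a log2 change of -0.45 ± 0.14 from AF-high (limma, adjusted p = 0.13). The adjusted p was 0.0403 without AF-high 4 and up to 0.33 with other libraries left out in turn. Nfe2l1, the factor known to restore proteasome genes when proteasomes are inhibited, had a log2 change of 0.03 ± 0.24 for AF-high against young (adjusted p = 0.976). Usp14, a deubiquitinase bound to the cap, averaged 75.8 ± 4.84 TPM in PLX5622 and 114.6 ± 16.2 TPM in AF-low libraries, a log2 change of -0.58 ± 0.14 (limma, adjusted p = 0.11). Its adjusted p was 0.0331 without AF-low 2 and up to 0.327 with other libraries left out in turn.

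Of 19 ubiquitin genes and entry enzymes of conjugation, 18 were tested and 0 were called, with up to 4 at an unadjusted p under 0.05 in a comparison (PLX5622 against AF-high, 15.3% of all genes, and PLX5622 against AF-low, 14.3%). Their median change lay between -0.16 (PLX5622 against AF-low) and 0.06 (AF-low against young). Uba1, the main ubiquitin-activating enzyme, averaged 61.6 ± 17.0 TPM in PLX5622 and 101.4 ± 21.0 TPM in AF-high libraries, a log2 change of -0.72 ± 0.20 (adjusted p = 0.104). Of 21 genes of MHC class I peptide loading and of immunoproteasome induction, 20 were tested, and 1 was called, in PLX5622 against AF-high (0.63% of all genes). At an unadjusted p under 0.05 the count ran from 1 (AF-high against AF-low; 8.21% of all genes) to 6 (AF-low against young; 11.8% of all genes). Their median change lay between -0.02 (PLX5622 against young; all genes -0.11) and 0.13 (AF-low against young). Stat2, a transducer of type I interferon signals, fell in PLX5622 libraries (734.5 ± 113.5 TPM) relative to AF-high (1315 ± 307.9 TPM), with a log2 change of -0.82 ± 0.17 (adjusted p = 0.0411). The call was lost without AF-high 2, 3 or 5 or without any 1 of the PLX5622 libraries (adjusted p up to 0.18), under quantile normalization (0.0627) and with both groups fitted alone (0.0976), while the change stayed between -0.92 and -0.61 in every alternative. Irf1, an interferon-responsive factor known to drive Psmb9, had 247.6, 295.1, 294.8 and 316.9 TPM in PLX5622 libraries, 123.9, 168.1, 299.1, 323.3 and 152.2 TPM in AF-high, 83.7, 326.5 and 123.5 TPM in AF-low, and 314.5, 272.8 and 273.5 TPM in young libraries. PLX5622 and young libraries overlapped, and the AF-high and AF-low libraries each held values both below and within the range of the PLX5622 libraries or above it. Its change was 0.93 ± 0.38 for PLX5622 against AF-low (limma, adjusted p = 0.287) and -0.53 ± 0.37 for AF-high against young (adjusted p = 0.635). For PLX5622 against AF-low it was 1.49 without AF-low 2 (adjusted p = 0.0336). With other libraries left out in turn it went down to 0.51, with adjusted p-values up to 0.673.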

How the data were processed

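RNA of sorted microglia had been amplified with the Ovation system and sequenced, per the labels' protocols. The deposited TPM table holds 1 line per gene symbol and 1 column per library, matched to the labels by column name. FastQC 0.11.8, Salmon 1.0.0, DESeq2 (no version given) and the build GRCm38 (mm10) are named in the submitters' processing notes; they do not state the filter behind the table, and no value equalled 0. TPM keeps no depth, so no counting interval was computed.

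Genes with at least 1 TPM in at least 3 libraries (13175) entered 1 limma 3.58.1 model in R 4.3.3 on log2(TPM + 1) with all 15 libraries and a variance trend. Tests were two-sided, called at an adjusted p under 0.05 per comparison; the code was tested on simulated data. Groups were taken as independent libraries. The members and lists were chosen with earlier results of these data known. Values per library were fixed for the cutting subunits, activators and inhibitor; means and tests for called members and for the 2 smallest p-values in each direction. Other members named were singled out after their values were seen. The share of inducible subunits was planned with Psmb5 and Psmb8, and was computed without that pair because Psmb8 was not analysed here. Shared 31-base words, overlaps and coding sequences are from GENCODE M21, promoters from RefSeq (GRCm38.p6; 41 of 49 members matched). Python 3.11.15, matplotlib 3.10.9 and Biopython 1.88 were used. Alternatives were another pseudocount, no filter, quantile normalization, a replicate block, fits on both groups alone, and libraries left out.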

Additional observations from a re-analysis of the deposited data

Results flagged for a closer look

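Of 100 groups of 4 or 5 libraries tested for a value far from the others of its group (Dixon's test), 4 were flagged, and chance flags about 1 in 20. AF-high 2 gave 3 of them. Psmc6, a base ATPase, was at 53.0 TPM in AF-high 2, against 109.9 to 128.7 TPM in the other AF-high libraries. Psmd1, a large scaffold subunit of the cap, was at 31.8 TPM in AF-high 2, against 62.4 to 68.0 TPM in the others. Psmg4, a core chaperone, was at 39.6 TPM in AF-high 2, against 6.62 to 8.42 TPM in the others. Psmc6 was at 132.2 TPM in PLX5622 4, against 109.5 to 112.8 TPM in the other PLX5622 libraries.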

How the results depend on the processing

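The number of members called was 0 in all but 2 of 83 combinations of an alternative setting with 1 of the 6 comparisons. Many of these combinations share a fit, so they are not separate checks. The exceptions were PLX5622 against AF-high in a fit lacking AF-low 1, AF-high 2 and AF-high 3 (1, Psmd4) and PLX5622 against AF-low without AF-low 2 (1, Psme3; 0 to 1 over the libraries left out in turn); the cause was not tested. Medians that moved by more than the spread between libraries were, for PLX5622 against AF-high, -0.21 with those 3 libraries aside; for PLX5622 against AF-low, 0.0488 under quantile normalization; for PLX5622 against young, -0.0617 under quantile normalization and -0.24 with a replicate block; and for AF-low against young, -0.142 to -0.0327 with libraries left out in turn, the lowest without young 1. Within that spread, the median for AF-high against AF-low changed sign, to 0.0497, with the 3 libraries aside, and that for PLX5622 against AF-high changed sign under quantile normalization (0.04) and with a replicate block (0.0232). The share of inducible subunits in AF-high minus AF-low changed sign as a mean log2 ratio (-0.15). Psme2b (-0.0069) and Psmb10 (-0.40) turned round in AF-high against AF-low, and Psmb10 (-0.11) in AF-high against young, with the same 3 libraries aside. Psmb10 in AF-low against young turned to -0.0069 under quantile normalization and -0.067 with young 1 and young 2 aside (young 3 is then alone, and is assumed to vary like the other groups), where Psmd10 (-0.16) and Psmb9 (0.21) turned round in PLX5622 against young. Psmd4 in PLX5622 against AF-high turned to 0.0353 under quantile normalization and 0.0232 with a replicate block, and Nfe2l1 in AF-high against young to -0.149 with that block. With libraries left out in turn, ranges that crossed 0 were the members' medians in AF-high against AF-low (-0.113 to 0.0021) and PLX5622 against AF-high (-0.11 to 0.0232), the inducible share in percentage points in AF-high minus AF-low (-1.49 to 3.89), AF-high minus young (-5.68 to 0.841), PLX5622 minus AF-high (-0.794 to 4.44) and PLX5622 minus young (-3.59 to 1.90), and the log2 changes of Psmb9 (-0.63 to 0.22) and Psmb10 (-0.0867 to 0.364) in AF-high against AF-low, Psmd4 in PLX5622 against AF-high (-0.271 to 0.112), Nfe2l1 in AF-high against young (-0.0565 to 0.238), Psmb10 in AF-low against young (-0.17 to 0.28) and in PLX5622 against AF-low (-0.45 to 0.0007), and Psmd10 (-0.0776 to 0.235) and Psmb9 (-0.584 to 0.0427) in PLX5622 against young.

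Over the 6 pairs of groups, deviations of same-numbered libraries had correlations from -0.0812 (AF-high and AF-low) to 0.141 (AF-high and young, lowest 0.0167). In no pair of groups were all over 0.1, so the numbers were not taken as pairs. Differently numbered AF-high and AF-low libraries ran from -0.185 to 0.172. The check therefore cannot tell whether these groups shared animals, which was not given. With a replicate block 0 members were called in all 6 comparisons and the call of Stat2 was lost (limma, adjusted p = 0.111). That block joined the same number across all 4 groups, so it did not test a pairing of AF-high with AF-low alone. With both groups fitted alone, PLX5622 against young had 13 members at an unadjusted p under 0.05, against 0 with all libraries, and 0 called. Over all genes that fit called 65, against 12 with all libraries. The share of all genes at the unadjusted threshold was not taken in it, so the 13 have no background beside them. Depth is unknown, so the sampling error of low members such as Psmg3 and Psma8 cannot be given.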
